A study of Mus musculus with 2 samples.

Results

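CD4 T cells of mouse brown adipose tissue (BAT) were taken from 2 single-cell RNA libraries of sorted CD45+ leukocytes. A barcode was counted as a CD4 T cell when it held at least 200 detected genes, at most 10% mitochondrial transcripts, at least 2 unique molecular identifiers (UMIs, each counting 1 captured transcript) of Cd3d, Cd3e and Cd3g together, at least 1 UMI of Cd4, and none of Cd8a, Cd8b1, Cd79a or Csf1r. This gave 96 of 4295 kept cells. There were 56 of 2279 in the control library and 40 of 2016 in the AdipoΔ/Δ library.

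CD4 T cells recognize peptides on MHC class II through an αβ T cell receptor that signals through the CD3 chains, and the CD4 coreceptor binds the MHC molecule. Naive cells recirculate through lymph nodes with the chemokine receptor CCR7 and the transcription factors LEF1 and TCF1 (Tcf7), whereas effector and memory cells leave that program and carry calcium-binding S100 proteins, CD44 and chemokine receptors for tissues. A separate branch, the regulatory T cells, is specified by the transcription factor FOXP3 and is well known in adipose depots.

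Both libraries came from male C57Bl/6 mice with the genotype AdipoQ-CreERT2 ATGLfl/fl, labelled as 16 weeks old, although the study's text gives a younger age for BAT CD45+ cells. Control mice received vehicle, and AdipoΔ/Δ mice received tamoxifen intraperitoneally (10 mg/ml, 200 uL, every 2 days for 1 week), followed in both groups by 2 weeks of rest. Tamoxifen activates a Cre driven by the adiponectin promoter, so that the triglyceride lipase ATGL is deleted in adipocytes and not in the T cells described here, and Pnpla2, the gene of ATGL, checks nothing in these cells (3 UMIs in control and 11 in AdipoΔ/Δ CD4 T cells). Effects of tamoxifen itself and of the deletion cannot be told apart. There was 1 library per group, the number of mice behind each is not given in the sources used here, and no difference between the libraries has a replicate check. All intervals are exact 95% intervals that cover counting error only, as do the limits for a count of 0, which are set at 3 counts.

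The CD4 T cells held 201918 UMIs in the control and 235283 in the AdipoΔ/Δ library. Depth per cell ran from 761 to 8390 UMIs in the control (median 3481) and from 1154 to 34484 in the AdipoΔ/Δ library (median 4856), so that the AdipoΔ/Δ cells were the deeper ones. A single AdipoΔ/Δ cell with 34484 UMIs supplied 14.7% of that library's CD4 T cell UMIs, and the next deepest held 12602. Results that move with it are given with and without it. Another uneven transcript was Gm42418, a noncoding gene that overlaps ribosomal RNA sequence, with 101477 counts per 1000000 UMIs (CPM) in control and 45834 CPM in AdipoΔ/Δ CD4 T cells. Among the 15 highest genes, ranked without mitochondrial and most ribosomal protein genes, it stood first, followed by Tmsb4x, which encodes the actin-binding thymosin beta 4, at 14105 and 18624 CPM.

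The label was checked on receptor genes that the rule did not use. Trac, the constant region of the T cell receptor α chain, was detected in 42 of 56 control and 34 of 40 AdipoΔ/Δ cells. Trac, Trbc1 or Trbc2 was detected in 55 of 56 and 40 of 40 cells, with the caution that Trbc1 and Trbc2 are near-identical β chain regions whose reads can be split between them. By comparison, Trac had a UMI in 1 of 285 control and 2 of 110 AdipoΔ/Δ B cells (barcodes with Cd79a and no Cd3 UMI). Trdc and Tcrg-C1, constant regions of the γδ receptor, were at 0 in the CD4 T cells of both libraries, as was the natural killer receptor gene Klrb1c. These markers are those of αβ T cells.

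The cells were selected on the UMIs of Cd3d, Cd3e, Cd3g, Cd4, Cd8a, Cd8b1, Cd79a and Csf1r, so the values of these genes are a description. Cd4 (chr6:124864692-124888221, minus strand, GRCm38) summed to 75 UMIs in the control and 69 in the AdipoΔ/Δ library. Of the 56 control members, 39 held exactly 1 Cd4 UMI, 16 held 2, and 1 held 3 or more. In the AdipoΔ/Δ library these numbers were 26, 9 and 5. The Cd3 sum was exactly 2 in 1 and 2 members and reached 22 and 61. Just outside the rule, 141 control and 95 AdipoΔ/Δ barcodes met everything but the Cd4 UMI, 2 and 2 carried a Cd8 UMI beside Cd4, 2 and 1 had a Cd3 sum of 1, 1 and 3 a Cd3 sum of 0, 1 and 6 carried a Csf1r UMI, and 1 and 0 a Cd79a UMI. No barcode was lost to the mitochondrial limit, and the members reached 7.10% and 8.46% mitochondrial UMIs. Since Cd4 was mostly seen as a single UMI, a CD4 T cell without a captured Cd4 transcript falls among the cells with no coreceptor UMI.

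CD4 T cells made up a like share of the T cells in both libraries. They were 16.3% of 343 control T cells (interval 12.6 to 20.7) and 16.5% of 243 AdipoΔ/Δ T cells (12.0 to 21.7), a ratio of 1.01 with an interval of 0.655 to 1.54. Among all kept cells the shares were 2.46% (1.86 to 3.18) and 1.98% (1.42 to 2.69), a ratio of 0.807 (0.524 to 1.23). Among kept cells without Csf1r UMIs, which leaves out most macrophages and monocytes, they were 4.03% and 3.90%. The CD4 share of CD4 and CD8 T cells together was 28% and 27.4%, a ratio of 0.978 (0.635 to 1.50). The intervals of these CD4 ratios included 1, and differences within their bounds were not detectable with this number of cells. All T cells together were 15.05% of control and 12.05% of AdipoΔ/Δ kept cells. That ratio was 0.801, with an interval of 0.677 to 0.947 that left out 1.

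Most CD4 T cells carried naive transcripts. Ccr7 (chr11:99144196-99155077, minus strand) or Lef1 (chr3:131110471-131224356, plus strand) had a UMI in 39 of 56 control cells (69.6%, interval 55.9 to 81.2) and in 25 of 40 AdipoΔ/Δ cells (62.5%, 45.8 to 77.3). The intervals of these shares overlapped. Both genes together were seen in 23 control cells and in 6 AdipoΔ/Δ cells, and at least 2 UMIs of the pair were seen in 29 and 14. After thinning every cell to 1000 UMIs, the expected share was 45.7% in the control and 27.9% in the AdipoΔ/Δ library. Lef1 was the cleaner of the pair as a T cell gene, with a UMI in 2 of 285 control and 0 of 110 AdipoΔ/Δ B cells, whereas Ccr7 had a UMI in 81 and 26 B cells, which also use this receptor.

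The opposite transcripts were read from S100a4 (chr3:90603771-90606045, plus strand), a calcium-binding protein of effector and memory T cells. It was detected in 16 of 56 control CD4 T cells (28.6%, interval 17.3 to 42.2) with at most 41 UMIs in a cell, and in 26 of 40 AdipoΔ/Δ cells (65.0%, 48.3 to 79.4) with at most 146. After thinning to 1000 UMIs the shares were 20.9% and 51.1%. Within the control library, S100a4 was present in 4 of the 39 cells with Ccr7 or Lef1 and in 12 of the 17 without. In the AdipoΔ/Δ library it was present in 12 of 25 and in 14 of 15. Cd44, the hyaluronan receptor of antigen-experienced T cells, was found in 6 of 56 and 17 of 40 cells, and in 5.73% and 12.8% after thinning.

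Single cells were also placed by their balance of naive and memory transcripts. UMIs of a naive list of 14 genes and of a memory and effector list of 25 genes were summed in each cell, a summary chosen after seeing the data. Every cell takes a side unless its 2 sums tie. The lists differ in number of genes and in level, so equal sums mark no boundary between naive and memory cells. The naive list held more UMIs than the memory list in 37 control cells (66.1%, interval 52.2 to 78.2) and in 13 AdipoΔ/Δ cells (32.5%, 18.6 to 49.1). The memory list held more in 18 (32.1%, 20.3 to 46.0) and 27 (67.5%, 50.9 to 81.4), and 1 control cell was tied. Cells within 1.5-fold of balance numbered 11 and 4. The median memory list level was 31.0 UMIs per 10000 in control cells (range 0 to 589) and 121 in AdipoΔ/Δ cells (0 to 602), and the median naive list level was 41.7 (0 to 111) and 17.4 (0 to 109). Depth moved with it: memory-side cells had a median of 2893 UMIs in the control and 6192 in the AdipoΔ/Δ library, naive-side cells 3660 and 3693, and the part of depth in the result was not tested beyond the thinned shares above.

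**Figure D1:**
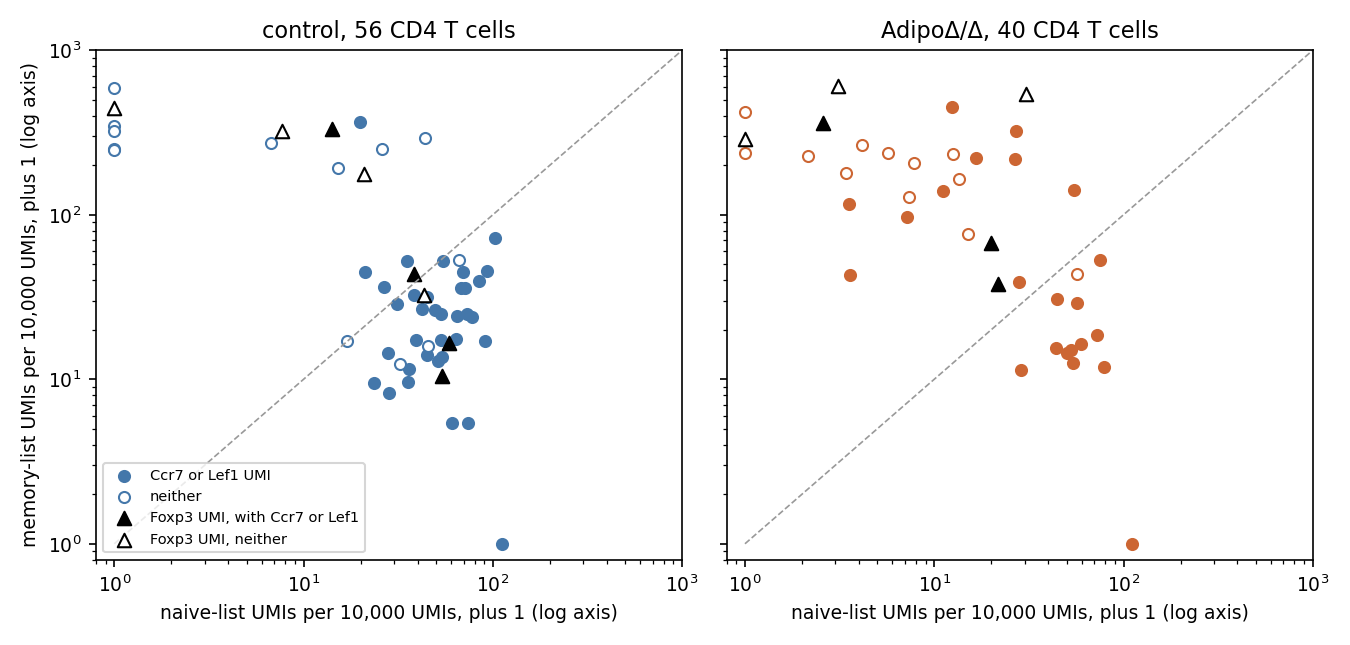
Each point is 1 CD4 T cell, placed by its naive-list UMIs (x axis) and memory-list UMIs (y axis) per 10000 UMIs plus 1 on log axes, with the control library on the left and AdipoΔ/Δ on the right. Filled symbols hold a Ccr7 or Lef1 UMI, black triangles hold a Foxp3 UMI, and the dashed line marks equal levels, with 37 of 56 control and 13 of 40 AdipoΔ/Δ cells below it.

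The cells with Ccr7 or Lef1 were compared with the other CD4 T cells of the same library. The other cells were shallower, with a median of 2332 against 3993 UMIs in control and 3194 against 5348 in AdipoΔ/Δ. A naive cell without a captured transcript of the pair falls among them, and the part of depth in this comparison was not tested. Of 898 genes with at least 50 UMIs, 24 were at least 2-fold higher in both libraries (2.67%) and 25 at most 0.5 times (2.78%). A gene entered on the UMIs of both groups of cells together, so these counts are a description. Ccr7 and Lef1 defined the cells and were left out. Of the 9 other naive-list genes measured, 4 passed in both libraries: S1pr1, Igfbp4, Actn1 and Foxp1. S1pr1, the sphingosine 1-phosphate receptor that lets lymphocytes leave lymph nodes, stood at 277 against 75.7 CPM in control and at 95.6 against 14.7 CPM in AdipoΔ/Δ cells. Satb1, a chromatin organizer of developing and naive T cells, stood at 487 against 50.4 CPM in control, and in AdipoΔ/Δ at 173 CPM against 0 UMIs, which is at least 3.92-fold higher with a floor of 3 UMIs. Klf3, a transcriptional repressor, stood at 197 against 25.2 CPM and at 185 against 44.2 CPM, from 1 and 3 UMIs in the other cells. Bcl2, the survival factor, stood at 234 against 50.4 CPM in control, from 2 UMIs in the other cells.

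The other side held the memory genes. Of 14 memory-list genes measured, 9 were at most 0.5 times as high in the Ccr7 or Lef1 cells of both libraries and 0 were 2-fold higher. The chemokine gene Ccl5 was 22.0-fold higher in the cells without Ccr7 and Lef1 in control and 10.2-fold in AdipoΔ/Δ. Id2, a regulator of effector differentiation, was 9.10-fold and 6.49-fold higher there, S100a4 17.4-fold and 4.36-fold, and Lgals1, the glycan-binding galectin 1, 4.22-fold and 3.69-fold. Ahnak, a large scaffold protein, was 29.6-fold and 3.43-fold higher. Nkg7, a cytotoxic granule gene, stood there at 580 against 18.5 CPM in control, and at 457 against 508 CPM in AdipoΔ/Δ. The difference between the libraries in these folds was not tested. Without the deepest cell, 7 of the 14 memory genes and 4 of the 9 naive genes passed in both libraries. The 12 genes of the T cell receptor and coreceptor list gave 0 genes that passed in both libraries in either direction.

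Foxp3 (chrX:7573644-7595245, plus strand) was detected in a minority of the cells. It had a UMI in 8 of 56 control CD4 T cells (14.3%, interval 6.38 to 26.2) and in 6 of 40 AdipoΔ/Δ cells (15%, 5.71 to 29.8). The 8 control cells held 14 Foxp3 UMIs, 1 to 4 each, and the 6 AdipoΔ/Δ cells held 18, 1 to 6 each. In classes that should lack it, Foxp3 was seen in 1 of 144 control CD8 T cells and 0 of 285 B cells, and in 0 of 106 and 0 of 110 in AdipoΔ/Δ, where a count of 0 allows a share of cells with a UMI of up to 2.83% and 2.73%. These limits concern captured transcripts, not expressing cells. Median depths were 3481 and 4856 UMIs for CD4, 5414 and 7628 for CD8 T cells and 1875 and 2588 for B cells. The T cells without Cd4 and Cd8 UMIs held it in 6 of 141 and 4 of 95. Thinned to 1000 UMIs, 6.52% and 4.61% of CD4 T cells would show it.

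The Foxp3 cells carried other regulatory T genes. Of 18 further genes on the regulatory T list, the control Foxp3 cells had a median of 3 detected (0 to 9) and the AdipoΔ/Δ ones a median of 8 (4 to 10), against medians of 0 and 1 in the CD4 T cells without Foxp3. The AdipoΔ/Δ Foxp3 cells were the deeper ones, with a median of 7918 UMIs against 3904 in control. They were also deeper than the CD4 T cells without Foxp3, whose medians were 4010 UMIs in AdipoΔ/Δ and 3467 in control. The part of depth in these contrasts was not tested. Il2ra, the high-affinity interleukin-2 receptor chain of regulatory T cells, was found in 1 of 8 control and 6 of 6 AdipoΔ/Δ Foxp3 cells, and in 0 of 48 and 1 of 34 others. Ikzf2, the transcription factor Helios, was in 3 of 8 and 5 of 6 against 2 of 48 and 2 of 34. Ctla4, the inhibitory receptor, was in 3 of 8 and 3 of 6 against 3 of 48 and 2 of 34. Klrg1, an inhibitory receptor of terminally differentiated cells, was in 3 of 8 and 3 of 6 against 2 of 48 and 3 of 34. Pparg, the nuclear receptor known from adipose tissue regulatory T cells, was at 0 UMIs in the CD4 T cells of both libraries. The memory list outweighed the naive list in 5 of 8 and 6 of 6 Foxp3 cells.

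Genes of helper subsets were counted by list. Cd40lg, the ligand by which CD4 T cells help B cells and macrophages, was in 13 of 56 control (23.2%) and 10 of 40 AdipoΔ/Δ CD4 T cells (25.0%), and in 0 of 144 and 1 of 106 CD8 T cells. Gata3, the Th2 and general T cell factor, was in 11 and 15 cells, 8.82% and 12.9% after thinning. Of 7 Th2 genes only Gata3 and Il1rl1, the interleukin-33 receptor, had a UMI in either library, and Il4, Il5 and Il13 were at 0. Of 8 Th1 genes 7 had a UMI in each library, with 88 UMIs in 29 control and 230 in 28 AdipoΔ/Δ cells. Ccl5 led them with 51 and 134 UMIs, followed by Stat4, a mediator of interleukin-12 signals, in 12 and 17 cells, and Cxcr3, a chemokine receptor of Th1 cells, in 7 and 12. The rarer members were Tbx21, the Th1 factor T-bet, in 2 and 5 cells and the cytokine gene Ifng in 1 and 4 cells. Il17a, Il17f and Il22 were at 0 in both libraries. A cytokine at 0 was not detectable at these depths, with 3 UMIs being 14.9 CPM in the control and 12.8 CPM in the AdipoΔ/Δ library.

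**Figure D2:**
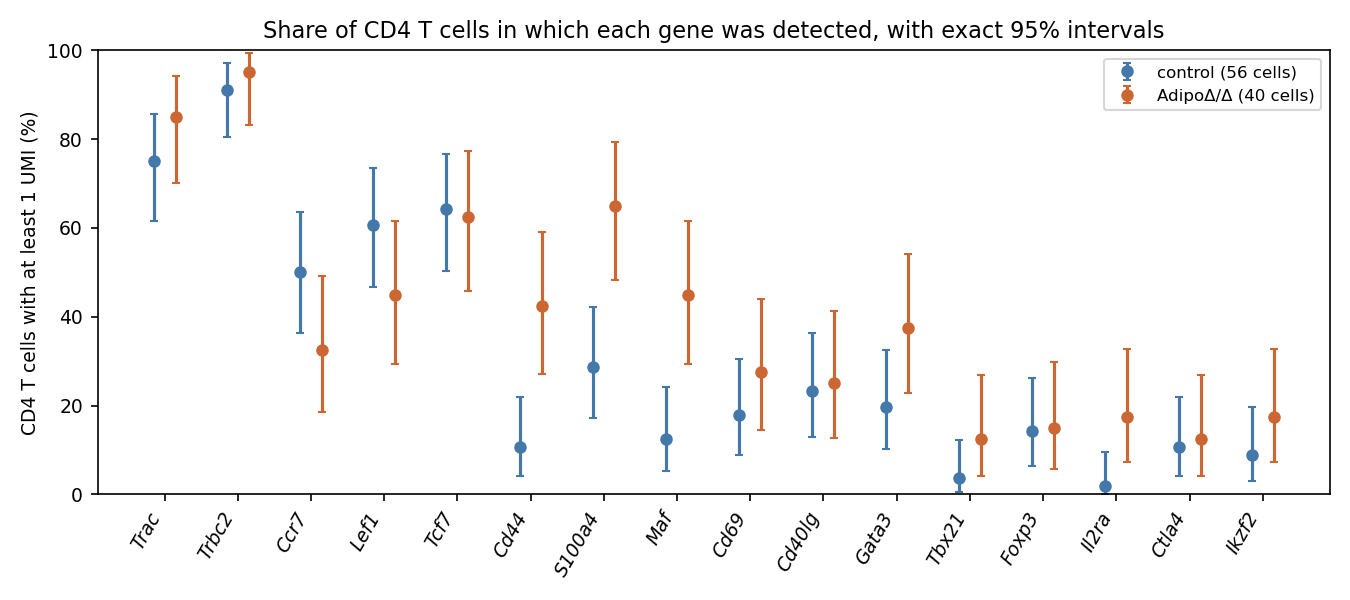
Points give the percent of CD4 T cells with at least 1 UMI of each gene (y axis, from 0) in the control (56 cells) and AdipoΔ/Δ library (40 cells), and bars are exact 95% intervals. The S100a4 intervals, 17.3 to 42.2 and 48.3 to 79.4, do not overlap, whereas those of Foxp3 nearly coincide.

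Summed over cells and scaled to CPM, the AdipoΔ/Δ CD4 T cells had less of the naive and more of the memory transcripts than the control cells. Of 900 genes with at least 50 UMIs, 80 were at least 2-fold higher in AdipoΔ/Δ (8.89%) and 19 at most 0.5 times (2.11%). These counts are a description, since a gene entered on the UMIs of both libraries together. The median log2 ratio over the 900 genes was 0.23, so levels are read against that shift. Scaled by the median ratio instead, the split was 43 higher and 37 lower. Without the deepest cell it was 47 higher and 14 lower of 792 genes, and 40 of the 80 higher and 12 of the 19 lower genes were among them. In such sums, more cells of a kind and more RNA per cell of that kind cannot be told apart.

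Of 11 naive-list genes, 4 were at most 0.5 times as high in AdipoΔ/Δ and 0 were 2-fold higher, with a median log2 ratio of -0.96 against 0.23 for all genes. Ccr7 had 69 UMIs in 28 control cells (342 CPM) and 25 UMIs in 13 AdipoΔ/Δ cells (106 CPM), a ratio of 0.311. Lef1 had 115 UMIs in 34 cells (570 CPM) and 45 in 18 (191 CPM), a ratio of 0.336 (interval 0.232 to 0.478). S1pr1 had 48 and 17 UMIs, a ratio of 0.304 (0.164 to 0.538), and the fourth gene was Igfbp4 at 0.265 (0.179 to 0.384). The other 7 genes gave ratios from 0.511 (Dapl1) to 0.951 (Il7r, the interleukin-7 receptor), among them Tcf7 at 0.554. Without the deepest cell the same 4 genes passed, with Ccr7 at 0.350 and Lef1 at 0.394, and the list median was -0.73. With every cell given the same weight, as the mean of the cells' CPM, the list median was -0.53 and Lef1 was 0.525.

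Of 14 memory-list genes, 11 were at least 2-fold higher and 0 were lower, with a median log2 ratio of 1.42. S100a4 stood at 703 and 2257 CPM (ratio 3.21, interval 2.66 to 3.89), S100a6, a related calcium-binding protein, at 718 and 2508 CPM (3.49, 2.91 to 4.22) and Lgals1 at 624 and 1802 CPM (2.89, 2.36 to 3.55). Maf, a transcription factor of effector helper cells, had 10 UMIs in 7 control cells and 48 UMIs in 18 AdipoΔ/Δ cells, a ratio of 4.12 (2.06 to 9.13). Nkg7 had 26 UMIs in 7 cells and 116 in 16, of which the deepest cell held 23. The 3 genes that did not pass were Vim at 1.94, Crip1 at 1.53 and Ahnak at 0.997. Without the deepest cell 12 of the 14 passed and the median was 1.53. With every cell given the same weight the median was 0.63 and only S100a6 and Maf passed, at 2.65 and 4.15, while S100a4 was at 1.90 and Lgals1 at 1.74. The size of the difference thus depended on the weight given to deep cells. Nor were S100a4, S100a6, Lgals1 and Maf higher in the CD4 T cells of AdipoΔ/Δ alone. In CD8 T cells they stood, in that order, at 94.7 and 1073, 330 and 1446, 247 and 1681, and 2.25 and 15.1 CPM in control and AdipoΔ/Δ. T cells without a coreceptor UMI held 742 and 973, 1855 and 1941.5, 829 and 1227, and 89.3 and 162 CPM.

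**Figure D3:**
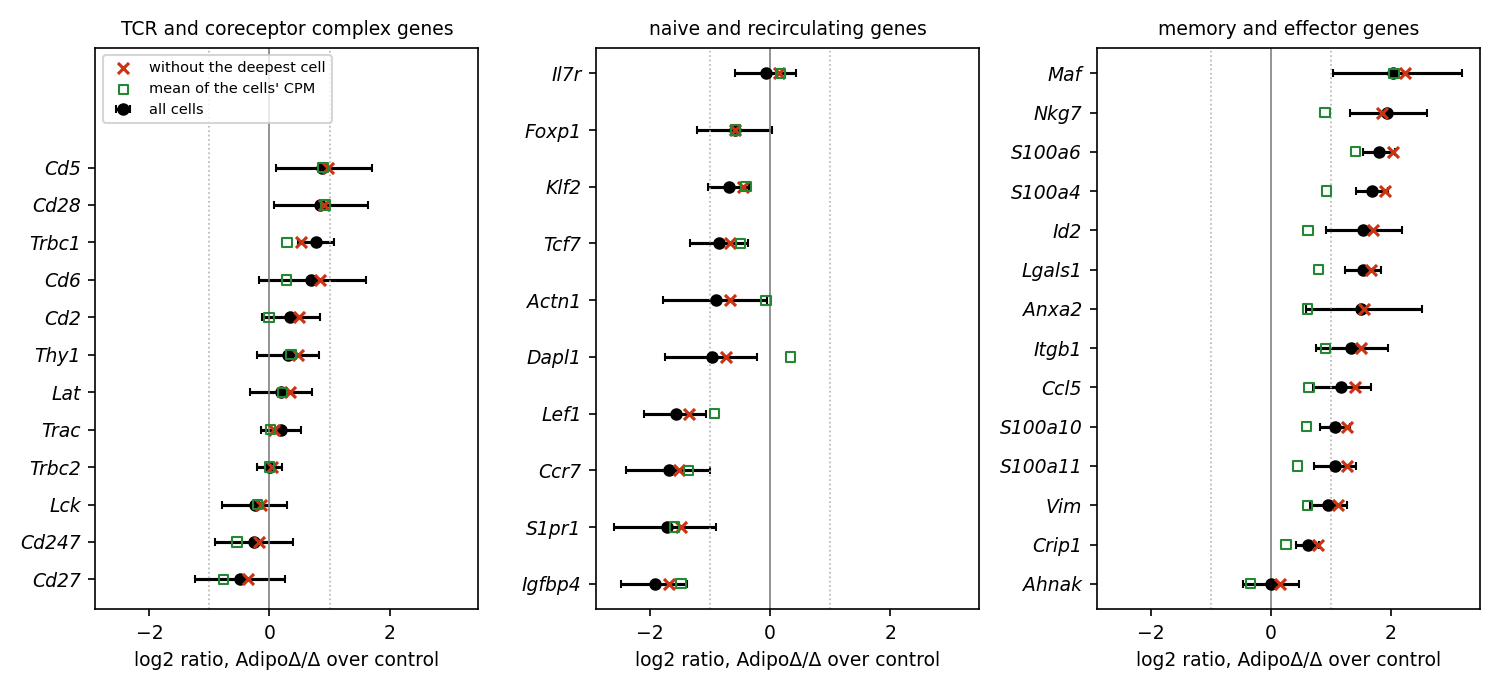
Each row is a gene, and the x axis is the log2 ratio of its level in AdipoΔ/Δ over control CD4 T cells, with black points and exact 95% intervals for all cells, crosses without the deepest cell and open squares for the mean of the cells' CPM. Dotted lines mark 2-fold, with 10 of the 11 naive genes drawn, and 4 naive genes lie left of them, 11 of 14 memory genes right of them and 0 of 12 receptor genes outside.

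Cells were also compared within their own side of the naive to memory balance. In the naive-side cells 13 of 347 genes passed 2-fold in either direction (3.75%), against 8.89% higher and 2.11% lower over all CD4 T cells, and Ccr7 stood at 418 and 359 CPM and Lef1 at 711 and 538 CPM. In the memory-side cells 52 of 505 genes passed (10.3%), or 23 of 429 without the deepest cell (5.36%). S100a4 stood there at 2797 and 3612 CPM, Lgals1 at 2098 and 2668 CPM, and Maf at 200 and 324 CPM. These values are a description, since the same genes sorted the cells. Ifi27l2a, an interferon-inducible gene that sorted none of them, stood at 757 and 807 CPM in the naive-side cells and at 1658 and 4164 CPM in the memory-side cells, a ratio of 2.51 (interval 1.99 to 3.20). It was also higher in the AdipoΔ/Δ library outside the CD4 T cells. It stood at 353 and 758 CPM in CD8 T cells, and at 474 and 973 CPM in T cells without a coreceptor UMI.

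The 10 lowest ratios between the libraries included 4 naive-list genes, Igfbp4, S1pr1, Ccr7 and Lef1. Igfbp4, an insulin-like growth factor binding protein of naive CD4 T cells, had 123 UMIs in 29 control cells and 38 in 9 AdipoΔ/Δ cells (ratio 0.265), of which a single cell held 22. Satb1 followed with 81 UMIs in 30 cells and 29 in 12 (0.307), and Bcl11b, a T cell commitment factor, with 94 in 31 and 48 in 24 (0.438). Emb, an adhesion molecule, was at 0.429, and without the deepest cell at 0.503. Gm12840, Rpl36a-ps1 and Rpl9-ps6 filled the other places, and the last 2 are pseudogene copies of ribosomal protein genes whose reads are uncertain.

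Of the 10 highest ratios, 5 rested on the deepest cell. Nrgn, a calmodulin-binding protein, was at 0 in control and had 53 UMIs in AdipoΔ/Δ, all in that cell. Hist1h2ap, Pclaf, Hist1h2ae, Hist1h4d and Ube2c, genes of DNA replication and division, also led the list. Nrgn, Hist1h2ap, Hist1h2ae, Pclaf and Ube2c had at most 3 UMIs in control. They reached the minimum of 50 UMIs through the AdipoΔ/Δ cells almost alone, which fixed their direction. Hist1h2ap had 1 control UMI and 50 in AdipoΔ/Δ, 43 of them in that cell. For Nrgn, Hist1h2ap, Hist1h2ae, Pclaf and Hist1h4d it held more UMIs than all other AdipoΔ/Δ CD4 T cells together. Without it 1 of the 10, Maf, was among the 10 highest, where the minimum of 50 UMIs also leaves out genes that lose UMIs with that cell. Ube2c, an enzyme of mitotic exit, had 2 UMIs in control and 53 in 7 AdipoΔ/Δ cells, with 44 outside the deepest cell (ratio 22.7, interval 5.99 to 193, and 22.1 without that cell). A single other cell held 25 of these 44. The remaining genes of the 10 were Ube2s (5.05), Samsn1 (4.53) and Snrpc (4.10).

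Cell cycle transcripts of the CD4 T cells were mostly seen in the AdipoΔ/Δ library. Mki67 or Top2a, which mark cells in cycle, had a UMI in 3 of 56 control and 8 of 40 AdipoΔ/Δ CD4 T cells, and at least 10 cell cycle UMIs were found in 0 and 5 cells. The deepest cell carried 164 of the 315 cell cycle UMIs, with 20 of Top2a and 14 of Mki67. It also held 8 Cd4, 61 Cd3 and 37 Trac UMIs and 34 UMIs of Xcl1, a lymphocyte chemokine. Whether it holds more than 1 cell was not tested. Mki67 had 3 UMIs in control and 31 in AdipoΔ/Δ, a ratio of 8.87 (interval 2.77 to 45.3), and 17 UMIs and a ratio of 5.70 without the deepest cell. A single other cell held 10 of these 17. The direction was not particular to CD4 T cells. In CD8 T cells Mki67 was in 2 of 144 control and 10 of 106 AdipoΔ/Δ cells, and Top2a in 2 and 19. In T cells without a coreceptor UMI, Mki67 was in 4 of 141 and 3 of 95 cells, and Top2a in 6 and 7.

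The other lists are read beside the 8.89% of all genes that were 2-fold higher, and ratios near 2 pass only before the shift of 0.23 is taken off. Of 5 heat shock genes, Dnaja1 and Hspa8, both chaperones, were at 2.34 and 2.02 times the control level, and Hspa8 was at 1.71 without the deepest cell. Of 6 glycolysis genes, Ldha (2.79) and Gapdh (2.16) passed, with Gapdh at 1.87 without that cell. Nfkbia, an inhibitor of NF-κB induced by it, was at 2.57 and was the only 1 of 5 immediate early genes to pass. Of 2 interferon-stimulated genes, Ifi27l2a (2.89) passed. Il2rb, the shared interleukin-2 and interleukin-15 receptor chain, was at 2.78, while Il2rg was at 1.07. Of 8 homing receptors Ccr7 and S1pr1 were at most 0.5 times as high and 0 were 2-fold higher, and the integrins Itga4 (1.34) and Itgb7 (0.957) did not. Cxcr6 had 5 UMIs in control and 16 in AdipoΔ/Δ. The 24 genes of fatty acid uptake and oxidation were all below 50 UMIs. Together they had 94 UMIs in 40 control cells (466 CPM) and 179 in 35 AdipoΔ/Δ cells (761 CPM), led by Etfb, Hadha and Hadhb. Several of the genes named here were also higher in AdipoΔ/Δ than in control CD8 T cells. There Dnaja1 stood at 258 and 473 CPM, Hspa8 at 801 and 1697, and Ldha at 172 and 372. Gapdh stood at 297.5 and 508 CPM, Nfkbia at 85.7 and 106, and Il2rb at 123 and 192.

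Against CD8 T cells of the same libraries (144 and 106 cells), the CD4 T cells had more of the regulatory T list and less of granzyme and perforin transcripts. Of 4205 genes, 47 were at least 2-fold higher in CD4 T cells in both libraries (1.12%) and 77 at most 0.5 times (1.83%). All 5 measured regulatory T list genes were higher: Capg, an actin-capping protein, 12.6-fold and 7.12-fold, Klrg1 8.79-fold and 6.10-fold, Tnfrsf18, the receptor GITR, 3.77-fold and 2.66-fold, Izumo1r, the folate receptor 4 of regulatory cells, 2.34-fold and 5.25-fold, and Ikzf2 2.10-fold and 7.88-fold. Maf ranked first among all genes, at 49.5 against 2.25 CPM in control, from 2 UMIs in CD8 T cells, and at 204 against 15.1 CPM in AdipoΔ/Δ. On the CD8 side stood Gzma, a granzyme, with 1 and 5 UMIs in CD4 against 182 and 1156 in CD8 T cells. Prf1, the pore-forming perforin, had 1 and 1 UMIs against 30 and 57. Ccl5 was 11.2-fold and 9.68-fold higher in CD8 T cells. Klrd1, a natural killer receptor chain, was at 0 in control CD4 T cells, so at least 15.6-fold higher in CD8 T cells, and had 10 UMIs in 2 AdipoΔ/Δ CD4 T cells, where CD8 T cells were 5.13-fold higher. Of 14 naive-list genes 0 were higher and 2 lower in CD4 T cells, Dapl1 and Ccr9. The counts of this comparison are a description, since a gene entered on the UMIs of both classes together. Gzma, Prf1, Klrd1 and Ccr9 entered through the CD8 T cells almost alone, which fixed their direction. Ccr9, the gut-homing receptor, had 1 UMI in each library's CD4 T cells.

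**Figure D4:**
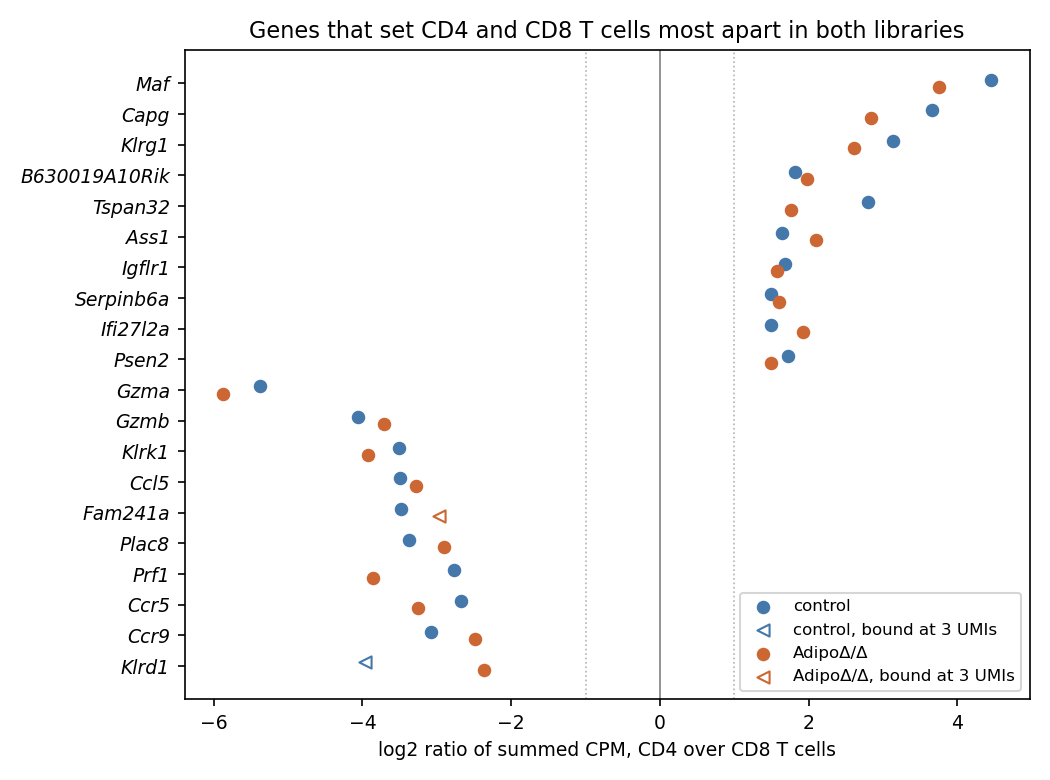
Each row is a gene, and points give the log2 ratio of its summed CPM in CD4 over CD8 T cells in the control and AdipoΔ/Δ library, with open triangles where CD4 T cells had 0 UMIs and the value is a bound at 3 UMIs. Maf, Capg and Klrg1 lie farthest to the CD4 side and Gzma farthest to the CD8 side in both libraries.

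S100a4 detection was also read in the other lymphocytes. CD8 T cells held it in 14.6% of control and 40.6% of AdipoΔ/Δ cells, T cells without a coreceptor UMI in 32.6% and 56.8%, and B cells in 13.3% and 28.2%. Thinned to 1000 UMIs, these were 5.35% and 28.9%, 24.9% and 44.9%, and 9.63% and 15.9%. After thinning, Ccr7 or Lef1 had a share of 41.7% and 32.8% in CD8 T cells, and in T cells without a coreceptor UMI of 34.3% and 17.4%. Within each library S100a4 was 7.43-fold and 2.10-fold higher in CD4 than in CD8 T cells.

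**Figure D5:**
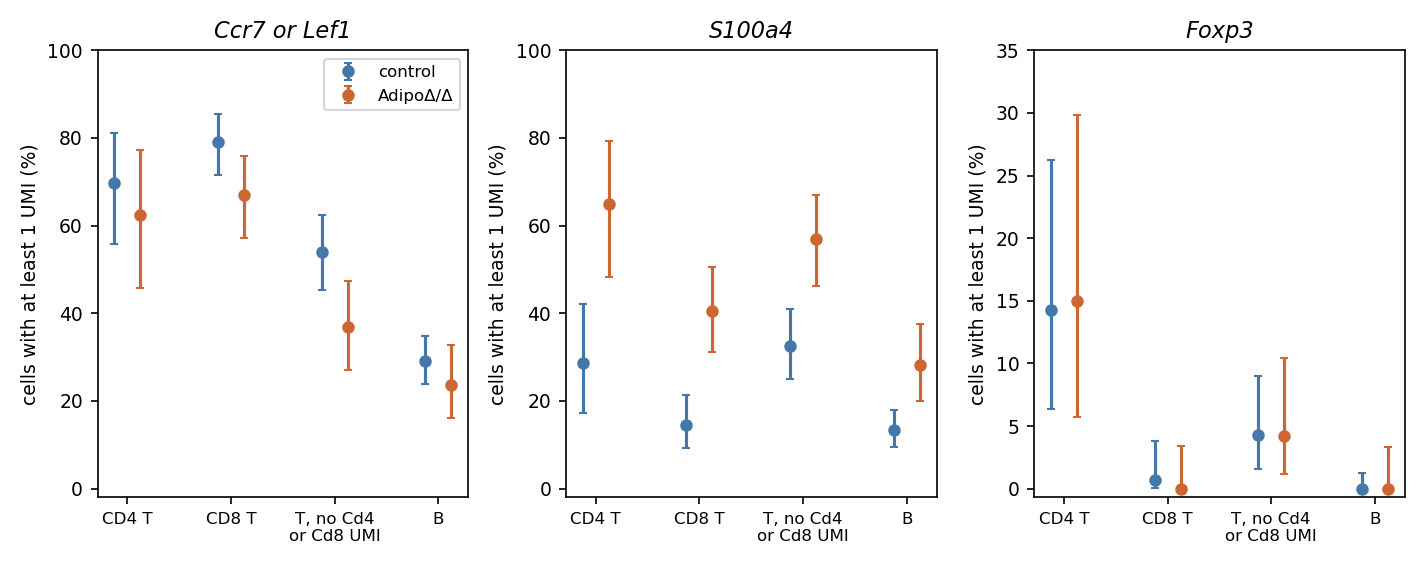
Percent of cells with at least 1 UMI (y axis) of Ccr7 or Lef1, S100a4 and Foxp3 in 4 classes of cells, with exact 95% intervals, for the control and AdipoΔ/Δ library. Foxp3 stands at 14.3% and 15% in CD4 T cells and at 0.694% and 0% in CD8 T cells.

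The T cells without either coreceptor UMI (141 and 95) were a mixed class. Of 3302 genes, 11 were at least 2-fold higher in CD4 T cells in both libraries (0.333%) and 137 at most 0.5 times (4.15%). The 6 natural killer and all 7 measured innate-like genes were lower in CD4 T cells, with Tyrobp, a signalling adaptor of killer cells, at 34.7 against 899 CPM in control and 25.5 against 927 CPM in AdipoΔ/Δ. These counts are a description, since a gene entered on the UMIs of both classes together. Ncr1, Klra4, Klrb1c, Trdc and Tcrg-C1 had 0 UMIs in the CD4 T cells of both libraries. They entered through the other class alone, which fixed their direction. Ccr7 was 2.23-fold and 2.74-fold higher in CD4 T cells, and Ly6a, a surface antigen of activated lymphocytes, 3.56-fold and 2.01-fold. Of the 14 receptor list genes measured, 0 passed 2-fold in the same direction in both libraries. The same held for the 5 regulatory T list genes that were higher in CD4 than in CD8 T cells. Here the CD4 level was 2.40 and 0.956 times the other for Capg, 1.72 and 2.75 for Klrg1, and 1.57 and 0.857 for Tnfrsf18. It was 0.604 and 1.57 times for Izumo1r and 0.906 and 0.584 for Ikzf2.

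Markers of other cells were low in the CD4 T cells. Of 9 macrophage markers, 8 were at 0 in control and 3 in AdipoΔ/Δ, where C1qb and Apoe led with 5 UMIs each, and the list summed to 4.95 and 72.2 CPM against 1419 and 3737 CPM over all kept cells. Csf1r is among these zeros in both libraries because the rule required it. Of 7 B cell markers 5 were at 0 in both libraries, among them Ms4a1 and also Cd79a, whose 0 the rule required. Ighm had 65 UMIs in 27 control and 54 in 19 AdipoΔ/Δ cells. The killer cell genes Ncr1, Klra4 and Klra8 were at 0. Lyz2, a myeloid lysozyme abundant in BAT leukocytes, had a UMI in 21 and 17 CD4 T cells. S100a8, a neutrophil transcript, was in 19 control and 3 AdipoΔ/Δ cells, in the direction of all kept cells, where the neutrophil list stood at 25624 and 8428 CPM. Its 5 genes summed to 302 and 80.8 CPM in CD4 T cells, with Csf3r and Cxcr2 at 0. The part of these transcripts in the values above was not tested.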

How the data were processed

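Single-cell RNA was measured with the 10x 3′ v3.1 chemistry in CD45+ DAPI- cells of collagenase-digested BAT, 1 library each of control and AdipoΔ/Δ mice. The authors made the deposited counts with Cell Ranger 4.0.0 on mm10. The values are raw UMI counts per gene and barcode, with no normalization, for 2597 and 2381 barcodes totalling 11327187 and 12028844 UMIs. The study's own cell filter, on a lower mitochondrial limit, was not used here. Of 32285 genes, 32158 were matched to GENCODE M21 for positions.

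Cells were chosen by raw UMIs as given at the start of the report. The cells and the gene lists (29 lists, 284 genes) were chosen with earlier results of these data known. UMIs were summed per library and class and divided by the class total (CPM). A gene entered a comparison with at least 50 UMIs over the sums compared and was counted at a ratio of at least 2 or at most 0.5. Named genes are those of the lists, the 10 highest and lowest ratios of each comparison, and the 15 highest by CPM. Some list genes are not reported here. No test was run, since each group has 1 library. Shares carry Clopper-Pearson intervals and ratios conditional binomial intervals. Thinned shares are the expected detection in 1000 UMIs drawn per cell, leaving out cells under that depth, which were 2 control cells among the CD4 T cells. In the other classes the thinned shares rest on 142 of 144 and 103 of 106 CD8 T cells. For T cells without a coreceptor UMI they rest on 126 of 141 and 85 of 95, and for B cells on 234 of 285 and 96 of 110. No doublet caller was run and no cell removed as one. The libraries shared 4 barcodes, 0 of them CD4 T cells. Intervals were tested on simulated Poisson sums per gene and library, without the clustering of UMIs in single cells. The ratio intervals treat UMIs as independent, so that simulation cannot show their coverage in these data. Tools were Python 3.11.15, NumPy 2.4.6, SciPy 1.17.1, pandas 2.3.3 and Matplotlib 3.10.9. Alternatives covered cell filters, gene filters, scaling, fold, depth and the deepest cell, the last chosen after seeing the data.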

Additional observations from a re-analysis of the deposited data

How the results depend on the processing

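No paired analysis was possible because each group has 1 library. Of 74 alternative values for shares and ratios of cells, 65 stayed within the interval of the value reported. The ratio of the CD4 share among T cells, 1.01 as reported, ran from 0.925 to 1.16 and so fell on both sides of 1. With at least 2 Cd4 UMIs, CD4 T cells were 0.746% and 0.694% of kept cells and 4.96% and 5.76% of T cells in the control and AdipoΔ/Δ library, 5.88% of the control cells held Foxp3, and 85.7% of the AdipoΔ/Δ cells held Ccr7 or Lef1. Thinned to 1000 UMIs, Ccr7 or Lef1 was at 45.7% and 27.9%, and Foxp3 at 4.61% in AdipoΔ/Δ.

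Against 80 genes at least 2-fold higher in AdipoΔ/Δ CD4 T cells and 19 at most 0.5 times, the counts were 292 and 79 with at least 20 UMIs, 29 and 10 with at least 100 UMIs, 43 and 37 when scaled by the median ratio, 228 and 47 at a fold of 1.5, 43 and 10 without the 5% deepest cells, 60 and 9 with at least 2 Cd4 UMIs, 45 and 16 for the mean of the cells' CPM, and 47 and 14 without the deepest cell, an alternative chosen after seeing the data. A lower or higher minimum tests more or fewer genes by construction, and the cause of the other changes was not tested. Of 90 alternative values for single genes, 0 turned a ratio whose interval left out 1 to the other direction. Depth limits what is seen of sparse genes: 3 UMIs are 14.9 and 12.8 CPM.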

Other observations

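The T cell receptor β chain region Trbc1 was detected in 53.6% of control and 55% of AdipoΔ/Δ CD4 T cells, or 38.6% and 39.5% after thinning to 1000 UMIs. It had 139 UMIs in 30 control and 276 UMIs in 22 AdipoΔ/Δ cells, with at most 14 and 78 in a cell, while Trbc2 had 336 UMIs in 51 cells and 392 in 38. The ratio of Trbc1 was 1.70 (interval 1.38 to 2.11) and 1.43 without the deepest cell, and that of Trbc2 was 1.00 (0.863 to 1.16). The deepest cell held 78 of the AdipoΔ/Δ Trbc1 UMIs and another cell 47, and reads of the near-identical regions can be split. Both regions had a UMI in 26 and 20 cells.

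Zbtb7b, the factor ThPOK that holds the CD4 lineage, was seen in 4 of 56 control and 14 of 40 AdipoΔ/Δ CD4 T cells, or 2.34% and 7.87% after thinning to 1000 UMIs, with 5 and 18 UMIs. The gene was under 50 UMIs in all, was picked out after its values were seen, and has no replicate. It was not particular to CD4 T cells. B cells held it in 21 of 285 control and 16 of 110 AdipoΔ/Δ cells, or 3.675% and 3.796% after thinning. T cells without a coreceptor UMI held it in 12 of 141 and 15 of 95, or 2.25% and 4.72% after thinning. CD8 T cells held it in 1 of 144 and 3 of 106.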
